A study of Mus musculus with 6 samples.

Results

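The genes described here are immediate early and activity-induced genes, which neurons switch on soon after they fire. A list of 43 such genes was drawn up by name, with earlier results of these data known. Of these, 42 were measured by a probe set whose annotation names only that gene, and 1, Arl4d, was not analysed here. They stand among 22180 genes measured in the same way. Of the 42, 40 had a mean brighter than the median probe set (4.72 on the log2 scale), and Ier2 and Maff lay below it. The RNA came from hippocampus taken at postnatal day 56 from males of the C57BL/6J strain, and each sample was hybridised to its own Affymetrix array. The 2 genotypes were Trpc4 wild type and Trpc4 knock out, with 3 samples each, which differed in no other label. Trpc4 encodes a receptor-operated cation channel that lets calcium into neurons. The extent of the deletion is not labelled, nor is it stated whether each replicate was a separate animal or how the mice were handled beforehand. Fewer active cells and less transcript per cell cannot be told apart in RNA of a whole tissue.

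Immediate early genes need no new protein to be transcribed. Calcium that enters an active neuron acts through kinases, CREB and serum response factor at their promoters, and their transcripts appear and decay within a short time. Many encode transcription factors, such as FOS, JUN and EGR proteins, which switch on a later set of genes. Others act directly at the synapse, such as Arc, which promotes the uptake of AMPA receptors. In the hippocampus, exploration, stress, seizures and the handling of an animal are all known to induce them.

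The Trpc4 signal was 8.12 ± 0.10 in wild type and 7.42 ± 0.12 in knockout (log2, SD, n = 3 each), and the groups did not overlap. Its limma adjusted p over all genes was 0.738, and a probe set outside the deleted part would not check the genotype. The 7 hippocampal markers (Prox1, C1ql2, Wfs1, Fibcd1, Grik4, Neurod6 and Zbtb20) had mean signals of 7.78 to 9.10, and the 6 neuronal ones 6.29 to 12.3. Markers of oligodendrocytes, of which 7 of 8 were measured, differed most between samples. All 7 were lower in knockout without overlap of the groups, as were 4.45% of all genes. Each had a limma unadjusted p under 0.05, beside 2.59% of all genes lower at that rule, and an adjusted p of 0.849 or more. The mean difference of these markers was -0.44. Their score, the mean log2 deviation from the gene means, was 0.14 to 0.27 in wild type and -0.19, -0.50 and 0.04 in knockout replicates 1 to 3. It was lowest in knockout replicate 2. The score of the neuronal markers stayed between -0.04 and 0.04 in all 6 samples, with 3 markers higher and 3 lower in knockout. Of these markers, Slc17a7 alone had groups that did not overlap. It was higher in knockout by 0.15 (limma unadjusted p 0.0782, adjusted p 0.862), while Gad1 differed by -0.08. Hippocampal markers scored 0.08, -0.04 and -0.13 in wild type and 0.05, 0.05 and -0.0064 in knockout. Among them Wfs1 differed by -0.25 and C1ql2 by 0.28 (limma unadjusted p 0.0168 and 0.0424, adjusted p 0.849 and 0.853).

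No immediate early gene differed between the genotypes past the threshold. Limma called 0 of the 42 at an adjusted p of 0.05, as it called 0.0% of all genes. At an unadjusted p under 0.05 it also counted 0 of the 42, where the share over all genes was 5.75%, with 3.16% higher and 2.59% lower in knockout. As many genes were higher as lower in knockout, 21 each, while over all genes 12186 were higher and 9994 lower. The median difference (knockout minus wild type, log2) was 0.0010, beside 0.013 over all genes tested. Differences ran from -0.34 for Nr4a1 to 0.33 for Klf4. The 3 knockout values lay wholly on one side of the wild-type values for 4 genes, 9.52% of the 42, beside 10.9% of all genes. Of these, Jund, Ier5 and Nptx2 were higher in knockout, where the share over all genes was 6.41%, and Klf10 was lower, where it was 4.45%.

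The largest differences in these genes were among samples of the same genotype. The score over the 42 genes was 0.14 in knockout replicate 1, -0.15 in replicate 2 and 0.0057 in replicate 3. In wild type it was -0.05, 0.03 and 0.02. The group scores of 0.0031 ± 0.04 and -0.0031 ± 0.14 (SD, n = 3 each) therefore overlapped fully, with the highest and the lowest sample both in the knockout group. The mean difference of -0.0062 became -0.08 without knockout replicate 1 and 0.07 without knockout replicate 2. No sample label other than the replicate number separates the knockout samples, so these contrasts between single samples have no test.

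**Figure D1:**
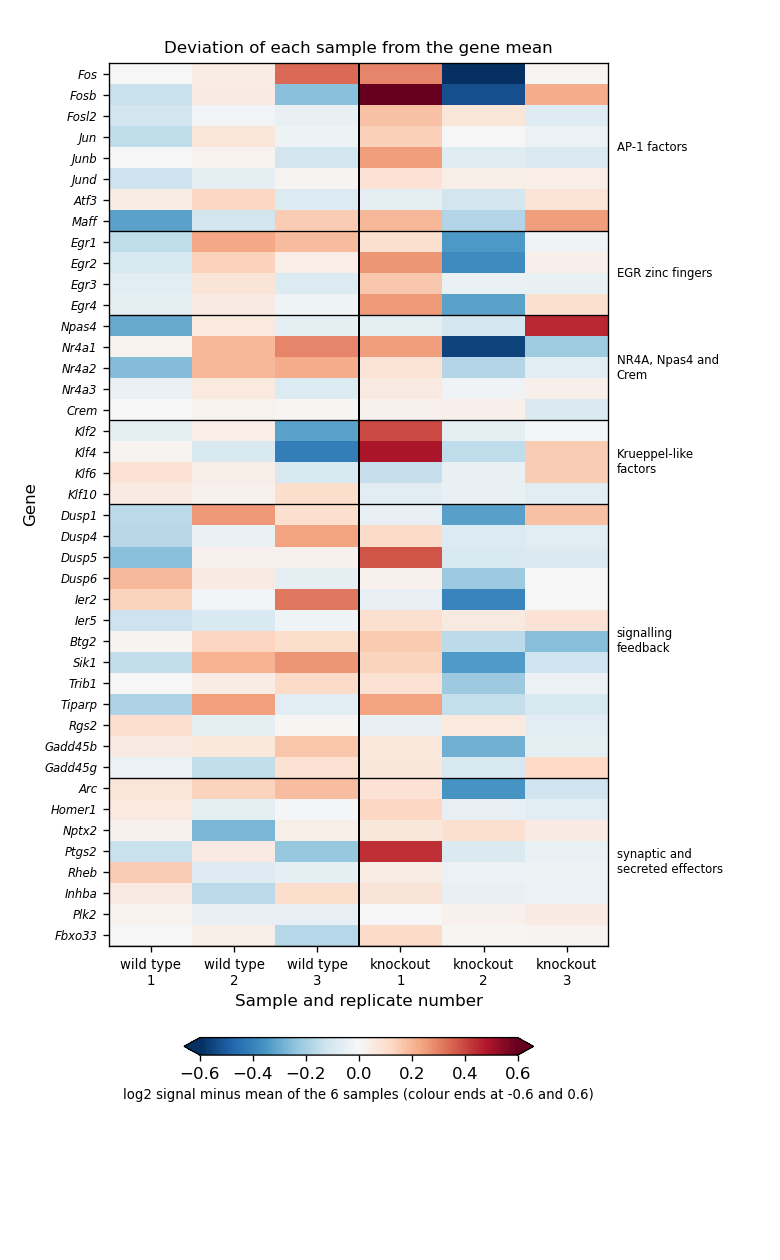
Deviation of each sample (columns) from the mean of the 6 samples for each of the 42 genes (rows, grouped by role), in log2 units, with red above and blue below the mean. Knockout replicate 1 is red and knockout replicate 2 blue for Fos, Fosb, Egr1, Egr2, Egr4 and Nr4a1, while Npas4 is darkest in knockout replicate 3.

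Knockout replicate 1 held the highest of the 6 values for 16 of the 42 genes (38.1%, beside 18.9% of all genes). Among genes brighter than the median probe set that share was 22.4%. Knockout replicate 2 held the lowest for 14 (33.3%, beside 15.1% of all genes and 16.1% of the brighter ones). Replicate 1 exceeded replicate 2 for 36 of the 42 genes (85.7%), beside 49.1% of all genes and 53.9% of the brighter ones. The highest value was also in knockout replicate 1 for 34.8% of the 23 regulators that act before the early genes. It was there for 38.9% of the 18 more slowly induced genes. Replicate 1 exceeded replicate 2 for 60.9% and 66.7% of these lists, which are described below. Knockout replicates 1 and 2 were picked after their values were seen, and the genes are not independent of each other. Against the wild-type range, knockout replicate 1 lay above all 3 values for 19 genes and replicate 2 below all 3 for 16, which are 45.2% and 38.1%. The same shares over all genes were 28.1% and 22.2%. In knockout replicate 3 the counts were 11 above and 9 below (26.2% and 21.4%), near the 25.7% and 22.4% of all genes.

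Fos, the founding member of the family and the partner of JUN in the AP-1 complex, read 5.81, 5.86 and 6.16 in wild-type replicates 1 to 3 (log2 signal here and below). Its knockout values were 6.11, 5.13 and 5.82. Replicate 2 was the lowest of all 6 samples, and replicate 1 lay near the highest wild-type sample. The difference of -0.26 had a 95% interval of -0.81 to 0.29 (limma), so the spread within knockout exceeded the difference between groups. Fosb, whose truncated product gathers with repeated stimulation, read 5.32, 5.50 and 5.20 in wild type and 6.09, 4.92 and 5.67 in knockout. Its knockout SD of 0.59 was the largest of the 42 genes in either genotype. The 3 knockout samples thus lay both above and below the whole wild-type range. The difference was 0.23 with an interval of -0.39 to 0.84, and it was -0.04 without knockout replicate 1.

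Promoter sequence is shown for Fos and Fosb, for Egr2 and Egr4, whose signals followed the mean of the other members most closely, for Nr4a1, and for contrast for Dusp1 and for Plk2, which hardly varied. The sequences are the 250 bases before an annotated start in RefSeq, build GRCm38.p6, written 5′ to 3′ on the strand of the gene. Capitals mark the CREB motif core TGACG, or CGTCA where it lies on the other strand, and the CArG box bound by serum response factor. Cores on both strands join into the full cAMP response element TGACGTCA.
Fos, chr12:85473640-85473889, plus strand: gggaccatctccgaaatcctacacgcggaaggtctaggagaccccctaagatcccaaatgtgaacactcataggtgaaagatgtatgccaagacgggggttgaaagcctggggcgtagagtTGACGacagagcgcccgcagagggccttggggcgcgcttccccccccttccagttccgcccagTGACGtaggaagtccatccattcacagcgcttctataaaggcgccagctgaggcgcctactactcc
Fosb, chr7:19310046-19310295, minus strand: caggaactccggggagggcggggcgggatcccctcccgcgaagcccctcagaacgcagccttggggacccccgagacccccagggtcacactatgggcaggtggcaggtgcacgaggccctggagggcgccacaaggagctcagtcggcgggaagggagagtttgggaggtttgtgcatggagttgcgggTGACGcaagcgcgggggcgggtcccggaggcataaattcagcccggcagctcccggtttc
Egr4, chr6:85513590-85513839, minus strand: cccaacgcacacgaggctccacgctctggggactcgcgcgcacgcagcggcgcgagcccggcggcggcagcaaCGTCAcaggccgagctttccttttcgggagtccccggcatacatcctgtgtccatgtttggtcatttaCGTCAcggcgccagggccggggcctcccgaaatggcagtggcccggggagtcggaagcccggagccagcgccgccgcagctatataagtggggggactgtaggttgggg
Egr2, chr10:67537619-67537868, plus strand: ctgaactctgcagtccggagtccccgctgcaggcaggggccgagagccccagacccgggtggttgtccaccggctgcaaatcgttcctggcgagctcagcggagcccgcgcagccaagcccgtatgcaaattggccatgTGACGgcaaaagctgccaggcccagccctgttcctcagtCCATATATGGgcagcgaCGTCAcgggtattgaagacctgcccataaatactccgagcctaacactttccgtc
Nr4a1, chr15:101266596-101266845, plus strand: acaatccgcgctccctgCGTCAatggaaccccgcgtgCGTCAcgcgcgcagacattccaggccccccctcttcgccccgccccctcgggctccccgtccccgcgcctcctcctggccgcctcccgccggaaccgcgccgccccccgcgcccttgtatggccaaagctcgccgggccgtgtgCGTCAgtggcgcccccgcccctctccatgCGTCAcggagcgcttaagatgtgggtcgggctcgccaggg
Dusp1, chr17:26508473-26508722, minus strand: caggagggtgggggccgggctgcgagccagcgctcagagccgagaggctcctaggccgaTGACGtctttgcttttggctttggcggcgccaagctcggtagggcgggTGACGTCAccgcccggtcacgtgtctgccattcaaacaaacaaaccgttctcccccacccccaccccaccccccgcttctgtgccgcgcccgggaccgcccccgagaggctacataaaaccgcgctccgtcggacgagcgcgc
Plk2, chr13:110394794-110395043, plus strand: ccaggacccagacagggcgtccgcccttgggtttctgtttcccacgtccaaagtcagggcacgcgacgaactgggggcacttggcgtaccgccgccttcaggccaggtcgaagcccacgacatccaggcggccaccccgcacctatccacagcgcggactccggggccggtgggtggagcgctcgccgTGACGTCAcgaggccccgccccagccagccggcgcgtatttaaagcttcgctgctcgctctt
The Egr2 window belongs to 1 of 5 annotated starts of that gene.

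The CREB core stood in a window of 21 of the 33 listed genes that have one, 63.6%, while 19.8% of all genes in the table hold it. The full element TGACGTCA was found for 5 genes, 15.2% beside 1.77%, namely Arl4d, Btg2, Dusp1, Maff and Plk2. A CArG box occurred for Dusp5 and Egr2 (6.06% beside 1.62%). Only the windows were searched, so a motif farther from the start, in Fos or any other gene, would be missed. Egr1 is among the listed genes without a window, so its promoter was not searched. The binding motif of the EGR factors, GCGNGGGCG, was present for 10 genes, 30.3% beside 5.33%. Both strands were searched, and each full element also counts as cores. Genes with several starts have more windows in which a match can fall. Counted back from the start, the first base of the Fos cores lies at -129 and -66 and that of the Fosb core at -60. Egr4 has cores at -177 and -109, and the CArG box printed for Egr2 begins at -72. Plk2 carries the full element at -62, and its signal was 9.55, 9.48 and 9.47 in wild type and 9.52, 9.55 and 9.58 in knockout. Those values stayed within a narrow range. Dusp1, with the full element at -143, varied more than Plk2, as its values below show.

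The other AP-1 genes varied less than Fos and Fosb. Junb read 6.76, 6.78 and 6.65 in wild type and 7.01, 6.69 and 6.67 in knockout, with replicate 1 alone above the wild-type range. The difference was 0.06 (interval -0.19 to 0.31), and -0.05 without that sample. Jund, the AP-1 subunit that is made at a steady level in most cells, read 7.69, 7.76 and 7.83 against 7.90, 7.85 and 7.85. All 3 knockout samples lay above the wild-type range by a small margin, at a difference of 0.11 (interval -0.06 to 0.28, limma adjusted p 0.897). A dimmer Jund probe set, with a mean of 6.32 instead of 7.81, differed by -0.09, so the 2 probe sets disagree in sign. Jun differed by 0.07, Fosl2 by 0.12, the stress-induced factor gene Atf3 by -0.06 and Maff, a small partner of AP-1 like proteins, by 0.18. Each of their intervals included 0. In all, 6 of the 8 AP-1 genes were higher in knockout, and knockout replicate 1 held the highest value for 5 of them.

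**Figure D2:**
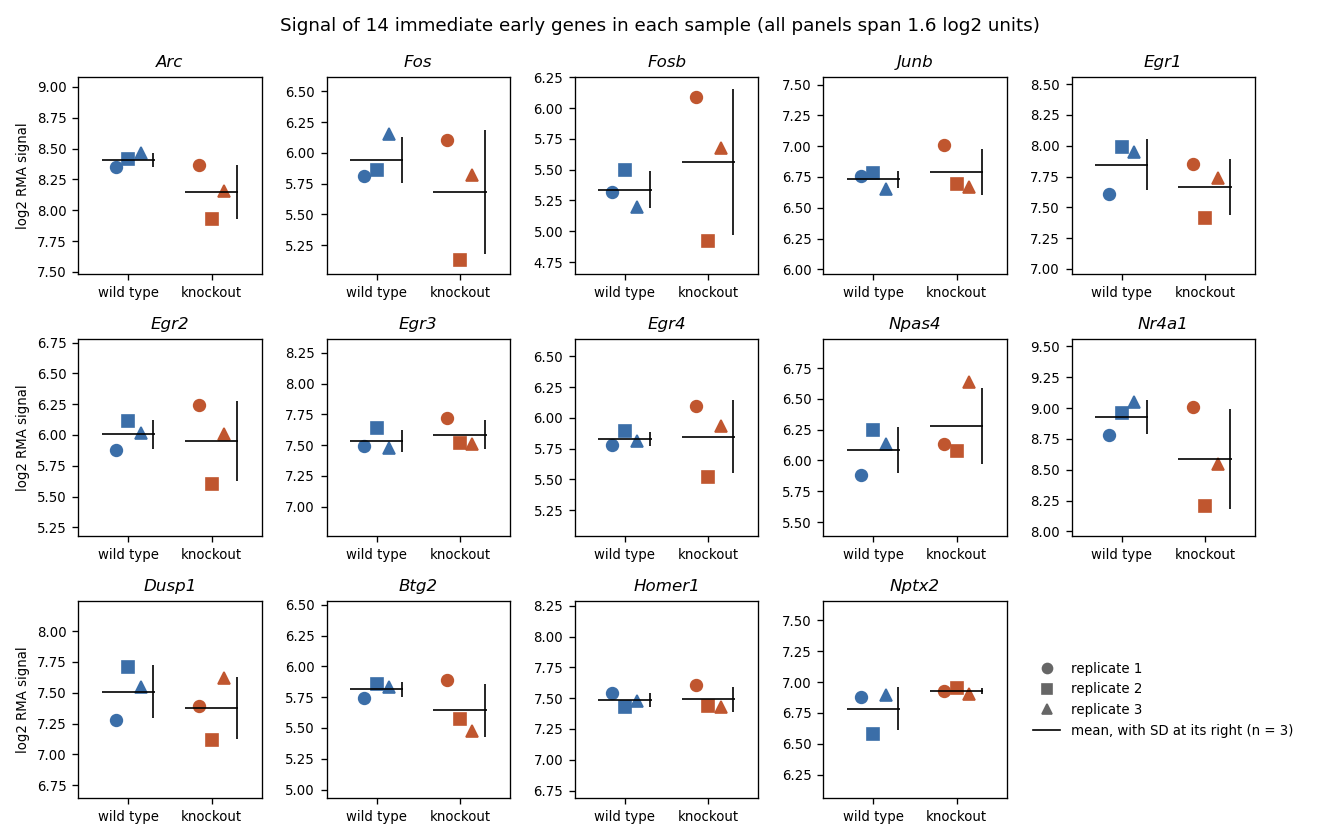
Log2 RMA signal of 14 immediate early genes in each sample, with wild type in blue and knockout in orange and a symbol for each replicate number; lines give the mean and the SD of 3 samples. Knockout replicate 2 (squares) is the lowest knockout sample for Fos, Fosb, Egr1, Egr2 and Egr4, and Nptx2 shows 3 close knockout values.

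EGR proteins are zinc finger factors that bind GC-rich sites, and Egr1 (also called Zif268) is widely used to mark active neurons. Egr1 read 7.61, 7.99 and 7.95 in wild type and 7.85, 7.41 and 7.73 in knockout. Both groups contained a low sample, wild-type replicate 1 and knockout replicate 2, and the groups overlapped. The difference was -0.18 with an interval of -0.52 to 0.16. Leaving out knockout replicate 2 gave -0.05, and leaving out wild-type replicate 1 gave -0.30. Egr2, which also directs myelination in Schwann cells, read 5.88, 6.12 and 6.02 against 6.24, 5.60 and 6.01. Here the knockout samples enclosed the wild-type range on both sides, and the difference was -0.06 (interval -0.43 to 0.32). It was 0.12 without knockout replicate 2.

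Egr4 gave 5.78, 5.89 and 5.81 in wild type and 6.09, 5.52 and 5.93 in knockout. Its wild-type SD of 0.06 and knockout SD of 0.30 differed most among the EGR genes, and the group means differed by 0.02 (interval -0.32 to 0.35). Egr3, a target of other early factors, gave 7.49, 7.64 and 7.48 against 7.72, 7.52 and 7.51, and differed by 0.05 (interval -0.16 to 0.26). Its order among the knockout samples was weaker, with only replicate 1 above the wild-type range. The score over the 4 EGR genes was 0.19, -0.27 and 0.01 in knockout replicates 1 to 3 and -0.09, 0.13 and 0.03 in wild type. All 4 had a larger SD in knockout than in wild type, as 49.3% of all genes did.

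The NR4A genes encode orphan nuclear receptors. Nr4a1 (Nur77) had the lowest difference of the 42 genes, at -0.34 with an interval of -0.79 to 0.10 (limma adjusted p 0.878). It read 8.78, 8.96 and 9.05 in wild type and 9.01, 8.20 and 8.55 in knockout. Knockout replicates 2 and 3 lay below the wild-type range and replicate 1 within it, so the difference was -0.55 without replicate 1 and -0.15 without replicate 2. Nr4a2 differed by -0.10 and was the member whose wild-type samples varied most, from 8.24 in replicate 1 to 8.73 in replicate 3. Nr4a3 differed by 0.04, with an SD of 0.07 and 0.04 in the groups.

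Npas4, a factor induced by calcium entry in neurons and little else, did not follow the same order of samples. It read 5.88, 6.24 and 6.13 in wild type and 6.13, 6.08 and 6.64 in knockout. The highest of the 6 values belonged to knockout replicate 3, and replicates 1 and 2 lay close together inside the wild-type range. The difference was 0.20 with an interval of -0.19 to 0.58, and 0.02 without knockout replicate 3. Crem, which encodes activators and the repressor ICER of cAMP-driven genes, differed by -0.02, and these isoforms were not told apart.

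Of the Krüppel-like factor genes, Klf2 and Klf4 are known from the endothelium as well as from early responses. Klf4 had the highest difference of the 42 genes, 0.33 with an interval of -0.09 to 0.74 (limma adjusted p 0.874). Its values were 4.80, 4.70 and 4.37 in wild type and 5.27, 4.63 and 4.94 in knockout, where replicate 2 lay within the wild-type range. Leaving out knockout replicate 1 gave 0.16 and wild-type replicate 3 gave 0.20, and without knockout replicate 2 its 0.48 stood below the 0.54 of Fosb. The mean signal lay just above the median probe set. Klf2 gave 5.50, 5.59 and 5.24 against 5.95, 5.50 and 5.55, with replicate 1 alone above the wild-type range, and a difference of 0.22 (interval -0.12 to 0.56). It was 0.08 without that sample and 0.12 without wild-type replicate 3. The score of 6 endothelial markers was -0.04 in knockout replicate 1, where Klf2 and Klf4 were highest, and -0.16 to 0.11 in wild type. That score leans on Ly6c1, a dim marker with a mean of 3.20, which read 3.37, 2.58 and 3.78 in wild type. Of the 6 markers, 1, Tek, was highest in knockout replicate 1. Between the genotypes 2 of them were higher and 4 lower in knockout. Abcb1a alone had groups that did not overlap (16.7% of the 6, beside 10.9% of all genes). It differed by -0.26 (limma unadjusted p 0.0172, adjusted p 0.849). The cells that gave the Klf2 and Klf4 signal were not tested. Klf10, induced by TGF-beta, read 6.99, 6.97 and 7.05 against 6.87, 6.90 and 6.88. It was the only gene of the 42 whose knockout samples all lay below wild type, at -0.12 (interval -0.28 to 0.04, limma adjusted p 0.881). Klf6 differed by -0.02.

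**Figure D3:**
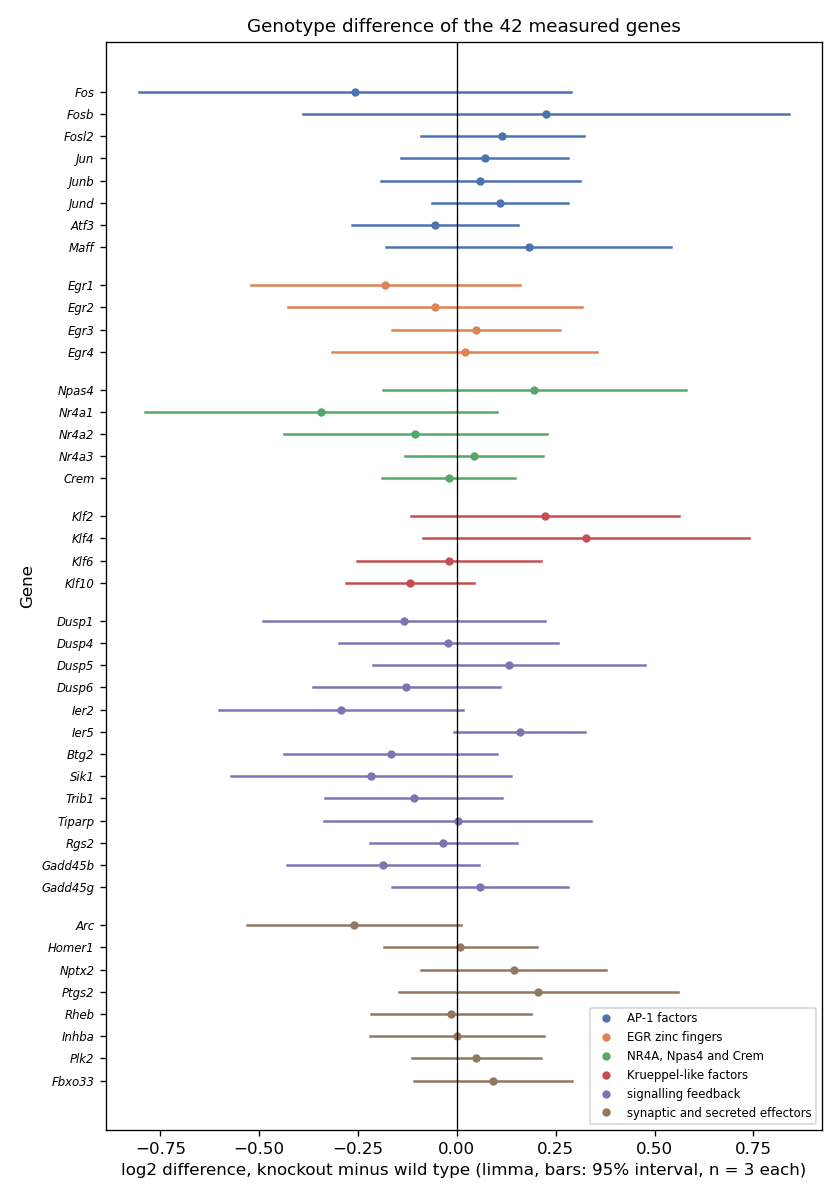
Difference between the genotypes (knockout minus wild type, log2) of the 42 genes, with 95% intervals from limma, coloured by role. Every interval includes 0, and the widest belong to Fosb and Fos.

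Feedback genes restrain the pathways that induce the early response. The group of 13 named after them also holds early genes described by other roles, such as Ier2, Ier5 and Gadd45b. Of the 13, 9 were lower in knockout, beside 9994 of all 22180 genes, and none passed the test. Dusp1, a phosphatase that switches off MAP kinases, read 7.28, 7.71 and 7.54 in wild type and 7.39, 7.12 and 7.62 in knockout. The groups overlapped, and the difference of -0.13 had an interval of -0.49 to 0.22. It was -0.0048 without knockout replicate 2. The other MAP kinase phosphatase genes differed by -0.02 (Dusp4), 0.13 (Dusp5) and -0.13 (Dusp6). Sik1, a kinase that keeps CREB coactivators out of the nucleus, gave 6.66, 7.02 and 7.08 against 6.95, 6.47 and 6.70. Its difference was -0.22 (interval -0.57 to 0.14), with a low sample in each group. Leaving out knockout replicate 2 gave -0.10, wild-type replicate 3 gave -0.14, and knockout replicate 1 or wild-type replicate 1 gave -0.34 or -0.35.

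Ier2 and Ier5 encode nuclear proteins of the early response and lay on opposite sides. Ier2 read 4.57, 4.42 and 4.75 in wild type and 4.39, 4.04 and 4.44 in knockout. The groups met at 4.42 and 4.44, and the signal was dim. Its difference was -0.29 (interval -0.60 to 0.02, limma adjusted p 0.857), or -0.17 without knockout replicate 2. Ier5 read 5.91, 5.95 and 6.01 against 6.13, 6.09 and 6.12. All 3 knockout samples lay above wild type and close together, so that the difference of 0.16 had an interval of -0.0062 to 0.32 (limma unadjusted p 0.0571, adjusted p 0.857). Leaving out any 1 sample gave 0.14 to 0.19. Ier5 was the member that came nearest to the unadjusted threshold of 0.05.

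Btg2, which slows cell division, read 5.75, 5.86 and 5.84 in wild type and 5.89, 5.57 and 5.47 in knockout, a difference of -0.17 (interval -0.44 to 0.10). Knockout replicate 1 was the highest of the 6 samples and the other 2 the lowest, and the difference was -0.29 without replicate 1 and -0.08 without replicate 3. Gadd45b, linked to DNA demethylation in active neurons, read 6.86, 6.87 and 6.97 against 6.87, 6.52 and 6.75. Replicates 2 and 3 of the knockout lay below the wild-type range, and the difference was -0.19 (interval -0.43 to 0.06). It was -0.09 without knockout replicate 2. Gadd45g differed by 0.06, the pseudokinase gene Trib1 by -0.11, Tiparp by 0.0021 and the G protein regulator gene Rgs2 by -0.03. Second, dimmer probe sets of Dusp6, Rgs2 and Tiparp had means of 2.28 to 3.17 and were not used.

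Effector genes carry the response to the synapse or out of the cell. Arc, whose transcript travels to active dendrites, read 8.35, 8.41 and 8.46 in wild type and 8.36, 7.93 and 8.16 in knockout. Wild-type samples were close together (SD 0.06), and knockout replicates 2 and 3 lay below them while replicate 1 lay within. The difference was -0.26 ± 0.12 (standard error) with an interval of -0.53 to 0.01 and a limma adjusted p of 0.857. On the linear scale knockout stood at 83.5% of wild type. Without knockout replicate 2 it was -0.15, and without knockout replicate 1 it was -0.37. In knockout replicate 2, where Arc was lowest, the oligodendrocyte score was lowest too, while neuronal markers scored 0.02 there. The part of tissue composition in these values was not tested.

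Homer1, a scaffold whose short early form uncouples glutamate receptors, read 7.54, 7.43 and 7.47 against 7.61, 7.44 and 7.42. The groups coincided, at a difference of 0.0081 (interval -0.19 to 0.20), and the short and long forms were not told apart. Nptx2, a secreted pentraxin that clusters AMPA receptors, gave 6.88, 6.58 and 6.89 in wild type and 6.93, 6.95 and 6.91 in knockout. All knockout samples lay above wild type by a small margin, and the difference of 0.14 (interval -0.09 to 0.38) was 0.04 without wild-type replicate 2. Ptgs2, the inducible cyclooxygenase, was chosen after its values were seen: it read 7.50, 7.68 and 7.41 against 8.07, 7.54 and 7.59. Its knockout replicate 1 was the highest of the 6 samples by a wide margin, and the difference was 0.21 (interval -0.15 to 0.56). Rheb, Inhba, Plk2 and Fbxo33 differed by -0.02 to 0.09.

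**Figure D4:**
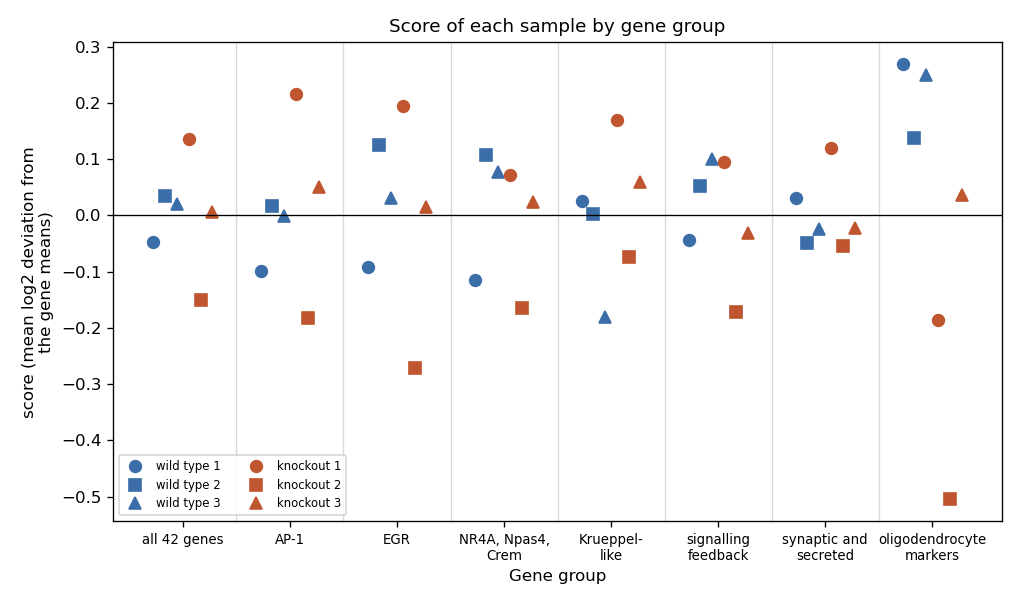
Score of each sample (mean log2 deviation from the gene means) over all 42 genes, over each role and over 7 oligodendrocyte markers, with wild type in blue, knockout in orange and a symbol for each replicate number. Knockout replicate 2 has the lowest score over the 42 genes (-0.15) and over the oligodendrocyte markers (-0.50), while knockout replicate 1 has the highest over the 42 genes (0.14) and a negative oligodendrocyte score (-0.19).

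Within-genotype SDs were compared with those of the 12978 genes whose mean lay above the median of all probe sets. Of the 40 listed genes in that range, 15 (37.5%) fell in the top 10% of SDs. These were the factor genes Fos, Fosb, Egr1, Egr2, Egr4, Npas4, Nr4a1, Nr4a2, Klf2 and Klf4, together with Dusp1, Dusp5, Sik1, Tiparp and Ptgs2. Against all 22180 genes, many of them dim and noisy, 5 of the 42 (11.9%) did so. Crem, Klf10, Ier5 and Plk2 lay in the lowest 10% of the brighter genes. Leaving out knockout replicate 1 reduced the 15 to 8, leaving out knockout replicate 2 reduced them to 11, and any other sample left 12 to 15. The median SD was 0.12 in wild type and 0.15 in knockout, beside 0.11 in each genotype over all genes. The SD was larger in knockout for 25 of the 42 genes (59.5%, beside 49.3% of all genes). With 3 samples a group, a difference of spread between the genotypes was not tested.

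**Figure D5:**
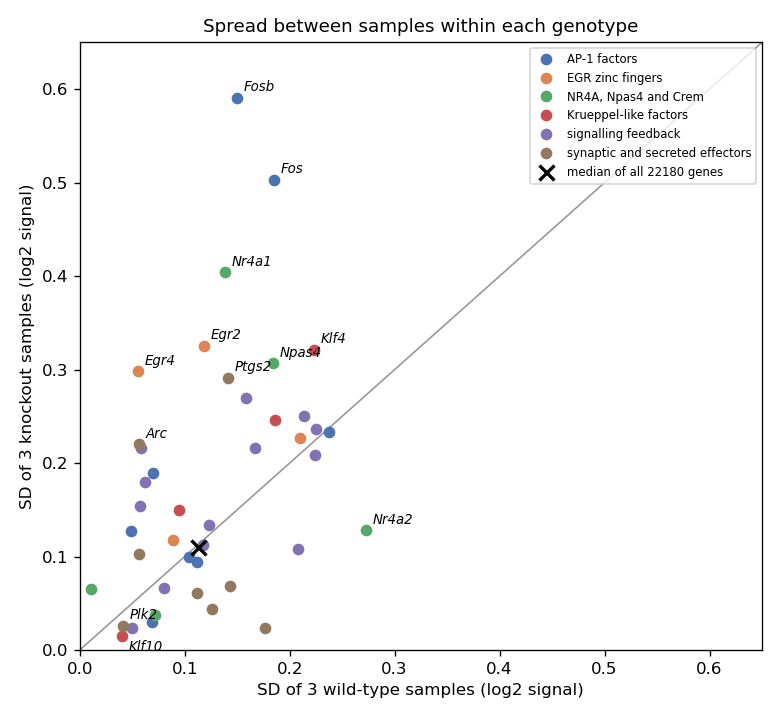
SD of the 3 knockout samples against the SD of the 3 wild-type samples for each of the 42 genes, in log2 units, coloured by role; the grey line marks equal SDs and the cross the medians of all genes. Fosb, Fos, Nr4a1, Egr2 and Egr4 lie far above the line and Nr4a2 below it.

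The genes varied together from sample to sample. The mean Pearson r over their 861 pairs was 0.19 across the 6 samples, beside 0.0030 over all pairs of the genes tested, and 67.4% of their pairs were positive. After removal of the genotype means it was 0.25 beside 0.00054. Leaving out knockout replicate 1 gave 0.081, leaving out knockout replicate 2 gave 0.12, and leaving out any other sample gave 0.21 to 0.26. These values are descriptions, since pairs share genes and arrays. Each gene was also set against the mean deviation of the other 41. Egr2 (r = 0.98), Egr4 (0.96), Fosb (0.86), Fos (0.85) and Trib1 (0.85) followed it most closely, and 35 of the 42 correlations were positive.

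In 6 relations with Fos, Nr4a1 followed it most closely, with Pearson's r = 0.93 over the 6 samples (exact permutation p 0.00278, adjusted over the 6 relations 0.0167) and Spearman's rho = 0.94 (exact p 0.0167, adjusted 0.1). Arc had r = 0.91 (exact p 0.0194, adjusted 0.0528) and rho = 0.89 (exact p 0.0333, adjusted 0.1). Egr1 had r = 0.84 (exact p 0.0264, adjusted 0.0528) and rho = 0.83 (exact p 0.0583, adjusted 0.117). Dusp1, Junb and Npas4 gave r = 0.63, 0.35 and 0.09 (exact p 0.153, 0.375 and 0.824, adjusted 0.229, 0.45 and 0.824) and rho = 0.54, -0.03 and 0.43 (exact p 0.297, 1 and 0.419, adjusted 0.446, 1 and 0.503). Without the 2 samples farthest from the median of Fos, knockout replicate 2 and wild-type replicate 3, r was 0.68 for Nr4a1, 0.34 for Arc, 0.37 for Egr1, -0.26 for Dusp1, 0.96 for Junb and -0.18 for Npas4. Leaving out those samples narrows the range of Fos by construction. The lower r of Nr4a1, Arc and Egr1 therefore cannot show whether their relations rested on those samples. None was tested on the remaining samples. With the genotype means removed, r was 0.94, 0.97 and 0.81 for these 3 genes.

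Regulators that act before the early genes were compared as a list of 28, of which 23 were measured. None passed the adjusted threshold, and 15 were higher in knockout, as were 12186 of all 22180 genes. At an unadjusted p under 0.05 there was 1 higher gene, 4.35% of the list, beside 3.16% of all genes higher at that rule. This was Crtc1, the CREB coactivator that enters the nucleus on calcium signals, at 0.18 (interval 0.0014 to 0.36, limma adjusted p 0.853). The next smallest p belonged to Hdac5 (0.16), Mrtfa (0.14) and Elk1 (0.13), and none reached that rule. Hdac5 is a repressor of MEF2 factors, and Mrtfa and Elk1 are partners of serum response factor. Groups did not overlap for 5 of the 23 (21.7%, beside 10.9% of all genes and 12.1% of those above the median probe set). All 5 were higher in knockout, where the share over all genes was 6.41%. Creb1 itself differed by -0.03 (interval -0.20 to 0.14) and Camk4, the kinase that activates CREB in the nucleus, by 0.06 (interval -0.11 to 0.22). Over the 23 genes the score was 0.05, 0.02 and 0.0080 in knockout replicates 1 to 3 and 0.0011, -0.04 and -0.04 in wild type, so that the groups did not overlap. The score over all genes tested did not overlap either, though its values were smaller. It was -0.00037, 0.013 and 0.0035 in knockout and -0.012, -0.00047 and -0.0033 in wild type.

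Genes that activity induces more slowly also gave no call. All 18 of that list were measured, 11 were higher in knockout, and 0 passed the adjusted threshold. The transcription factor gene Cebpb was the 1 gene at an unadjusted p under 0.05, at 0.26 (interval 0.03 to 0.50, limma adjusted p 0.853), which is 5.56% of the list, beside 5.75% of all genes at that rule and 3.16% higher in knockout. Its difference was 0.17 without knockout replicate 2. Vgf, a neuropeptide precursor induced by activity and BDNF, differed by 0.22 (interval -0.00049 to 0.45), and Nptx1 by 0.12. Bhlhe40, which acts on the circadian clock, differed by -0.14 (interval -0.32 to 0.05). The neurotrophin gene Bdnf differed by -0.06 (interval -0.26 to 0.15). The score of the list was 0.07, -0.02 and -0.02 in knockout replicates 1 to 3.

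With 3 arrays a genotype, a difference that covers a large part of the spread of Fos or Fosb was not detectable, while for steady members such as Plk2 the interval was -0.11 to 0.21. The exact permutation test over 3 against 3 samples cannot go below 0.1.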

How the data were processed

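Total RNA of hippocampus was labelled and hybridised to Affymetrix arrays, per the labels' protocols. The authors deposited log2 signals that, per the submitters' processing notes, came from RMA and Affymetrix Power Tools. Their versions and the build were not given in the sources used here. RMA normalizes the arrays together, so a shift of most genes would be hidden, and a signal set against another probe set's says nothing about abundance. The array medians were 4.73 to 4.75, and the number of arrays limits the precision.

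Of 41345 probe sets, 23521 named 1 gene in the platform annotation, 1814 several and 16010 none. The brightest by mean stood for each of 22180 genes, of which 21994 matched a RefSeq table of GRCm38.p6 by gene number. List symbols Mkl1 and Mkl2 were updated to Mrtfa and Mrtfb.

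Knockout was compared with wild type in limma 3.58.1 (R 4.3.3), fitted to all genes with Benjamini-Hochberg adjustment at 0.05. The labels do not state separate animals, so a p-value reflects only how these samples vary, which may be technical. The fit was tested on simulated data. Named were 14 textbook genes, the 8 further members of smallest unadjusted p and all members whose groups did not overlap, plus up to 4 genes of each pathway list; values by sample of Ptgs2 and Plk2, and Creb1, Camk4 and Bdnf, were added after values were seen. The members and lists were chosen with earlier results of these data known. The alternatives were other normalizations, probe set rules, variance models, a replicate block and leaving out each sample.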

Additional observations from a re-analysis of the deposited data

How the results depend on the processing

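None of the 42 genes was called at the adjusted threshold under any of the 13 alternatives run for that count. Over all genes the count of 0 became 1 with trend and robust variance (Trpc4, limma adjusted p 0.0378) and was 0 to 1 without single samples. The 0 members at an unadjusted p under 0.05 became 1 with array weights or quantile normalization (Arc). Over all genes 5.9% and 5.87% passed that rule there. The count was 2 among the brighter probe sets alone (Ier5 and Arc, beside 6.94% of those genes). It was also 2 with trend and robust variance (Nr4a1 and Arc, beside 6.22% of all genes). Without single samples it was 0 to 4, beside 4.9% to 6.5% of all genes. Leaving out knockout replicate 1 gave 4 (Nr4a1, Btg2, Gadd45b and Arc, beside 5.52%). Leaving out knockout replicate 2 gave 2 (Fosb and Klf4, beside 5.31%). Members whose groups do not overlap numbered 5 to 10 without single samples, where fewer samples make separation easier for any gene. These counts cannot be set against the 10.9% of all genes, a share that was counted with every sample included. They therefore say nothing about the members in particular. The mean difference lay between -0.08 and 0.07, and the mean pairwise r between 0.081 and 0.26. The upstream count of 1 was 0 with array weights, median centring, quantile normalization or the replicate block, 3 with trend and robust variance and 0 to 1 without single samples. The late count of 1 was 2 among the brighter probe sets, 3 with trend and robust variance and 0 to 1 without single samples. Homer1 turned to -0.0044 with quantile normalization. Without single samples the differences ranged from -0.47 to 0.020 for Fos, -0.038 to 0.54 for Fosb, -0.050 to 0.12 for Junb, -0.20 to 0.12 for Egr2, -0.019 to 0.10 for Egr3, -0.10 to 0.19 for Egr4 and -0.051 to 0.041 for Homer1. The r with Fos, without the 2 farthest samples, was -0.18 for Npas4, -0.26 for Dusp1 and 0.68 for Nr4a1. The cause was not tested.

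Equal replicate numbers were not shown to pair the samples, as their deviations correlated at 0.07, 0.03 and -0.0038 over genes. With the replicate number as a block, 0 genes were called and 1 member, Ier2, had an unadjusted p under 0.05, beside 5.93% of all genes.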
